A study of Mus musculus with 9 samples.

Results

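Histone deacetylases (Hdacs) are enzymes that take acetyl groups off lysines of histones and other proteins. The zinc-dependent members Hdac1 to Hdac10 were chosen by name in a table of total RNA-Seq values, in which 10 genes with 11 table rows carried these names among 29069 rows. Hdac4 had 2 rows, one of which, ENSMUSG00000073617, is absent from the GENCODE M21 annotation, and Hdac4 below is the row ENSMUSG00000026313 unless stated. All 10 genes passed the minimum mean of 5 normalised counts set for testing, which 18156 of the rows passed.

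The libraries came from mESC of the D3 line, an established mouse embryonic stem cell line grown without feeder cells, at passages 5 to 8. Cells were kept for 24 h in 1 of 3 media with 3 replicates each. Ground-state medium (GS) was serum-free N2B27 with the MEK inhibitor PD0325901 at 1 μM, the GSK-3 inhibitor CHIR99021 at 3 μM and leukaemia inhibitory factor (LIF) at 20 ng/mL. Differentiation medium (DM) was DMEM with 1 g/L of glucose, 4 mmol/L of glutamine, 0.1 mmol/L of 2-mercaptoethanol and 10% fetal bovine serum, with neither inhibitor and no LIF listed. For the NO medium, DETA/NO, which sets nitric oxide free, was added to DM at 250 μM. DM and NO thus differ from GS in base medium, serum and inhibitors, whereas NO and DM differ in the donor. By the study's methods, RNA of each sample came from a dish of its own, so the p-values measure the spread between dishes. Whether the dishes of a medium were cultured on separate days was not stated for these libraries.

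Values are normalised counts, made by the authors from read counts with a size factor per library and then rounded, and the estimated depth was 14309711 to 27068814 assigned reads per library. A single read was worth 0.701 to 1.32 normalised counts. Markers of embryonic stem cells were high in every library, and none of the 10 was at 0 throughout. Their summed level was 95418 to 97617 in GS, 96344 to 107211 in DM and 56109 to 91975 in NO, with the lowest sum in NO replicate 2, which also lay farthest from the other libraries on the first principal component (score of 131 against 25.9 and 67.1 for NO replicates 1 and 3). Summed markers of other cells were 99 to 122 in GS, 231 to 249 in DM and 213 to 296 in NO for fibroblasts (7 genes), 118 to 176, 78 to 163 and 182 to 662 for primitive endoderm (6 genes), 632 to 657, 166 to 238 and 320 to 1130 for trophoblast (6 genes), and 3300 to 4605, 3035 to 3236 and 4025 to 6005 for endothelium (6 genes), and no marker was at 0 in all samples. Genes within these lists did not move together. Pecam1, at 2317 to 3988, made up most of the endothelial sum, and Cdh5 stayed at 0 to 4. Tek rose from 75 to 96 in GS to 557 to 1871 in NO. The fibroblast rise in DM was mostly Thy1, from 59 to 60 in GS to 168 to 211. In the trophoblast list Cdx2 (46 to 75 in GS, 3 to 14 in NO) and Eomes were lower in NO, whereas Krt7 (4 to 15 in GS, 65 to 484 in NO) and Hand1 were higher. The part of these shifts in the results below was not tested. In bulk RNA, fewer cells of a type and less RNA per cell cannot be told apart.

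Class I Hdacs (Hdac1, Hdac2, Hdac3 and Hdac8) are mostly nuclear, and Hdac1 and Hdac2 form the catalytic core of the Sin3, NuRD and CoREST co-repressor complexes, while Hdac3 works with NCoR and SMRT. Class IIa enzymes (Hdac4, Hdac5, Hdac7 and Hdac9) have little catalytic activity of their own, bind MEF2 transcription factors and leave the nucleus when kinases phosphorylate them and Ywha adaptor proteins hold them in the cytoplasm. In class IIb, Hdac6 deacetylates tubulin and other cytoplasmic proteins, and Hdac10 deacetylates polyamines. Nitric oxide is known to modify Hdac2 at the protein level, which RNA values do not show.

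Promoter windows, from 250 bases before to 50 bases after a RefSeq gene start (build GRCm38.p6), were searched for 7 of the 10 genes, with 11 windows in all. Hdac1 and Hdac10 had no window, and Hdac3 was left out of the search. The windows of Hdac2, an Hdac of the Zeb1 repressor complex whose RNA did not pass a test here, and of Hdac6 and Hdac9, whose RNA did, are shown because they differ in base composition. Capitals mark the CACCTG E-box that Zeb factors bind, the GGGCGG box of Sp factors and the CCAAT box, each on either strand. All 4 windows are written 5′ to 3′ in the direction of the gene.
Hdac2 (chr10:36974294-36974593, plus strand): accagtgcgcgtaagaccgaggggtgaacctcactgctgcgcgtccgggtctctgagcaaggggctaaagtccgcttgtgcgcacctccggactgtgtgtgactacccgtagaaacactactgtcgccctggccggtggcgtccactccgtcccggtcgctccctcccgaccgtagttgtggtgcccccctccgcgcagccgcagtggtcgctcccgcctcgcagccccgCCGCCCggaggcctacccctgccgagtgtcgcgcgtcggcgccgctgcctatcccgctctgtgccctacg
Hdac6 (chrX:7947840-7948139, minus strand): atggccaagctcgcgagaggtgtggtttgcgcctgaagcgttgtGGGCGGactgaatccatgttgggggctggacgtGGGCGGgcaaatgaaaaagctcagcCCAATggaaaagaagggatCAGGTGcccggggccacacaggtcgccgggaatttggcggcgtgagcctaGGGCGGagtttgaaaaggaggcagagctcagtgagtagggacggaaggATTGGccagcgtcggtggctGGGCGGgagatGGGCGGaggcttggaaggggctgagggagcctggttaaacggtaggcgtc
Hdac9, first window (chr12:34528840-34529139, minus strand): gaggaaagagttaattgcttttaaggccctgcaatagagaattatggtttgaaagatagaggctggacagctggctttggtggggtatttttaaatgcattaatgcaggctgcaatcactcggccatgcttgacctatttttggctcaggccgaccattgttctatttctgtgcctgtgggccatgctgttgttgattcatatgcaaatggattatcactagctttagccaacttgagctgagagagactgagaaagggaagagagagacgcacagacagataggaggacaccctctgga
Hdac9, second window (chr12:34917046-34917345, minus strand): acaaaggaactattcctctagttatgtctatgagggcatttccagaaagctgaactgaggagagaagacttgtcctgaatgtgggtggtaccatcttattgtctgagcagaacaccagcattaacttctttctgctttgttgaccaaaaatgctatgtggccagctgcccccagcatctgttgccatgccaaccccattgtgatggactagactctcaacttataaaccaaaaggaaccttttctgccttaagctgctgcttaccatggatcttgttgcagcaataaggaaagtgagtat

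The Hdac2 window held 36 CpG dinucleotides and 1 GGGCGG box, 20 bases before the start. The Hdac6 window held 20 CpG, 5 GGGCGG boxes, 2 CCAAT boxes and 1 CACCTG box, 129 bases before the start, the only CACCTG match among the 11 windows. The Hdac9 windows held 3 and 0 CpG and none of the searched motifs. Over all 32851 promoter windows of the table the median was 7 CpG, and CACCTG was present in 20.2%, GGGCGG in 35.7% and CCAAT in 37.4%. Among the 11 windows Hdac5 had the only match to the MEF2 motif, 20 bases before its start, which 3.19% of all windows hold. Hdac4 had 5 GGGCGG and 2 CCAAT boxes, and in the Hdac8 window the 2 CCAAT matches overlapped on opposite strands. These matches describe letters in the windows and are not evidence of binding.

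Per kb of exon, Hdac1 was the most abundant member, with a mean of 1413 normalised counts per kb over the 9 samples (range 871 to 1863). Hdac2 followed with 599.7 (440 to 797), Hdac6 with 552 (410 to 737) and Hdac3 with 405 (249 to 477). Hdac5 had 159.6 (121 to 211), Hdac10 had 75.6 (52.1 to 104) and Hdac7 had 53.4 (26.8 to 83.6). Neighbours in this order differed beyond their spread over the 9 samples only for Hdac1 over Hdac2, Hdac3 over Hdac5, Hdac5 over Hdac10 and Hdac8 over Hdac9. Hdac4 at 35.0 (24.8 to 55.3) and Hdac8 at 34.1 (27.3 to 41.5) were interleaved, with Hdac4 higher in 4 of 9 samples. Hdac9 was last with 1.79 (0 to 10.3). Divided by the length of the longest transcript instead, Hdac8, Hdac7 and Hdac4 took ranks 7, 8 and 9 in place of 9, 7 and 8, and the other ranks held.

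**Figure D1:**
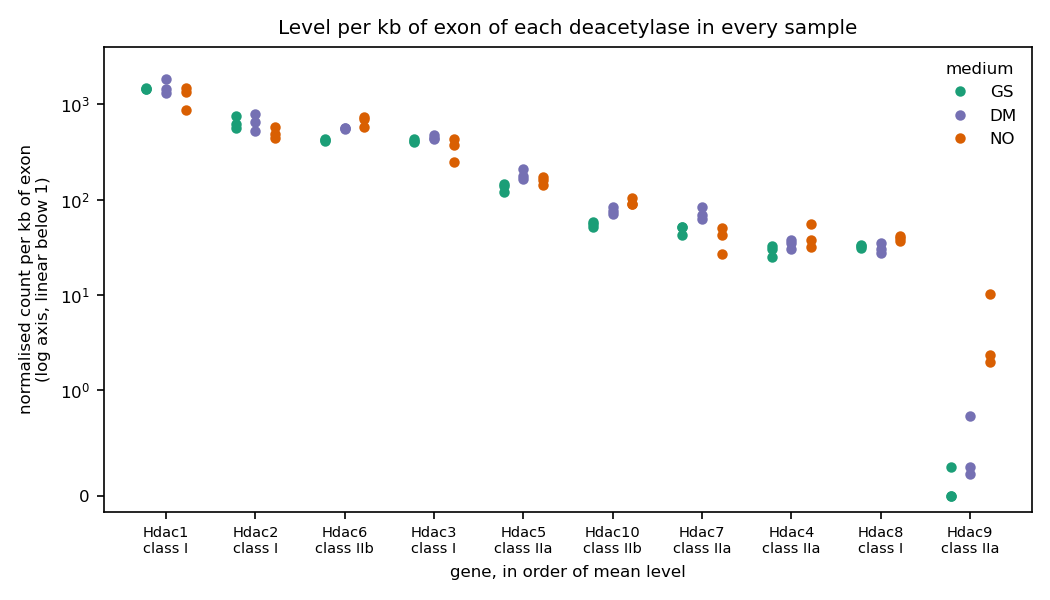
Normalised counts per kb of exon (y axis, log scale that is linear below 1) of the 10 deacetylases, ordered by mean level, with 1 point per sample coloured by medium. All samples of Hdac1, from 871 to 1863, lie above all samples of the other genes, and Hdac9 is at 0 in 2 GS samples and reaches 10.3 in NO.

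The class I genes made up most of the deacetylase transcripts in every library. Their share of the summed level per kb was 77.3%, 77.8% and 80.7% for GS, 75.4%, 72.5% and 74.7% for DM, and 74.1%, 59.3% and 68.3% for NO. The class IIb share was 15.7%, 14.9% and 13.7% for GS, 17.1%, 19.4% and 16.7% for DM, and 19.3%, 30.8% and 24.4% for NO. All DM values of the class IIb share thus lay above all GS values, and all NO values but that of replicate 1, at 19.3%, lay above all DM values. Averages of the class IIa share were 6.63% ± 0.90 (SD, n = 3) for GS, 8.04% ± 0.60 for DM and 7.94% ± 1.73 for NO. For the ratio of Hdac2 to Hdac1 normalised counts, GS gave 0.57 ± 0.07, DM 0.57 ± 0.19 and NO 0.54 ± 0.10 (SD, n = 3), and the 3 media overlapped. These shares and the ratio are descriptions with no test. The ratio was not divided by exon length. In both the ratio and the shares Hdac1 may be undercounted, because reads that also fit its pseudogene, described below, were left out.

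**Figure D2:**
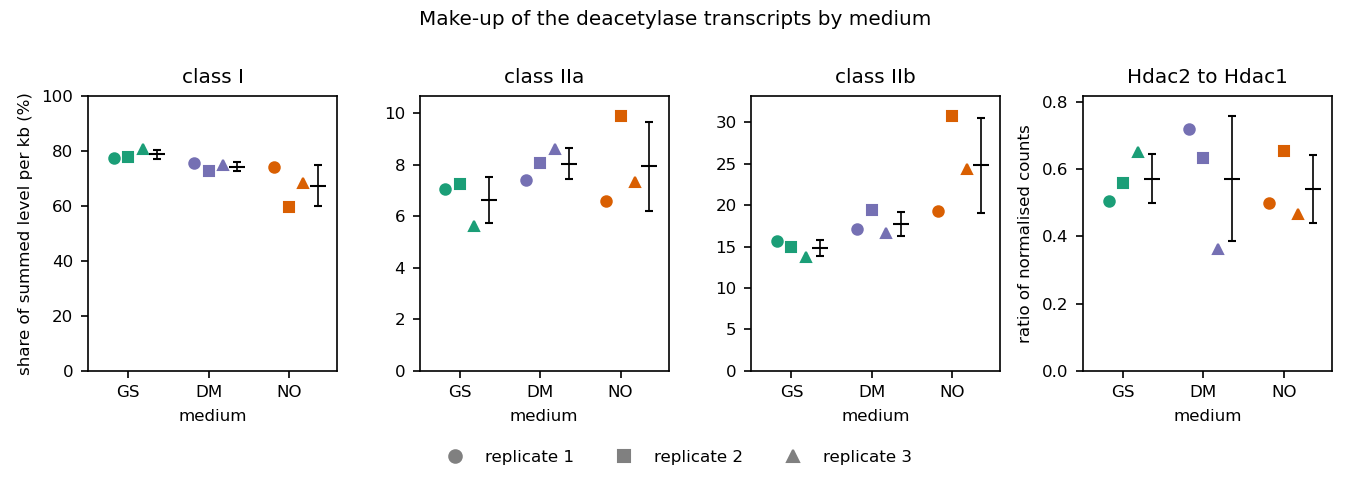
Share of the summed deacetylase level per kb of exon (%) held by class I, class IIa and class IIb genes, and the ratio of Hdac2 to Hdac1 normalised counts, by medium. Coloured symbols are replicates 1 to 3 and black bars are the mean ± SD (n = 3), with the mean class IIb share at 14.8% for GS, 17.7% for DM and 24.8% for NO.

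Between DM and GS, which asks what 24 h of release into serum does, none of the 10 members passed the test at an adjusted p under 0.05 (limma on log2(value + 1), Benjamini-Hochberg over 18156 genes), where 6.69% of all tested genes passed, 4.37% being higher and 2.32% lower in DM. With a 2-fold change also required, the number stayed at 0 members against 4.20% of all genes. At an unadjusted p under 0.05 there were 5 members (Hdac5, Hdac6, Hdac7, Hdac9 and Hdac10), each higher in DM, against 19.9% of all genes. Hdac9, with means of 1.33 in GS and 6 in DM, passed the minimum mean of 5 only through NO. It does not count as support here, and setting it aside leaves Hdac5, Hdac6, Hdac7 and Hdac10. The 3 DM and 3 GS values did not overlap in 5 members (Hdac3, Hdac5, Hdac6, Hdac7 and Hdac10), against 29.6% of all genes. The median log2 fold change was 0.32 over the members and -0.00068 over all tested genes.

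Between NO and GS, 3 of 10 members were higher in NO (Hdac6, Hdac9 and Hdac10) and none was lower, where 20.0% of all tested genes passed, 13.4% higher and 6.64% lower. With a 2-fold change also required 1 member remained, Hdac9, against 11.7% of all genes. Values did not overlap in 4 members (Hdac6, Hdac8, Hdac9 and Hdac10), against 39.1% of all genes. The median log2 fold change was 0.25 over the members and -0.016 over all tested genes. Hdac9 is in these NO vs GS counts and in the medians of the members, although it passed the minimum mean only through NO. Setting it aside leaves Hdac6 and Hdac10 as the NO vs GS calls and no member past 2-fold.

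Between NO and DM, which isolates the donor, 2 of 10 members passed, Hdac9 higher and Hdac7 lower in NO, where 14.2% of all tested genes passed, 9.01% higher and 5.24% lower. Hdac9 was the single member past 2-fold as well, against 8.55% of all genes. Values did not overlap in 5 members (Hdac6, Hdac7, Hdac8, Hdac9 and Hdac10), against 33.4% of all genes. The median log2 fold change was 0.025 over the members and 0.0010 over all tested genes. Across the 3 media together the moderated F test called 4 members (Hdac6, Hdac7, Hdac9 and Hdac10), against 23.3% of all genes. Hdac9 is in each of these NO vs DM and F-test counts, and it passed the minimum mean of 5 only through NO. Setting it aside leaves Hdac7 as the NO vs DM call and no member past 2-fold. With the replicate number as a block, both NO vs DM calls were kept (adjusted p = 0.0334 for Hdac7 and 0.0285 for Hdac9). Read against the shares over all genes, 0, 3 and 2 of 10 members called do not set the family apart, and the 3 and the 2 include Hdac9. DM vs GS and NO vs GS share the GS samples, and both NO comparisons share the NO samples.

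**Figure D3:**
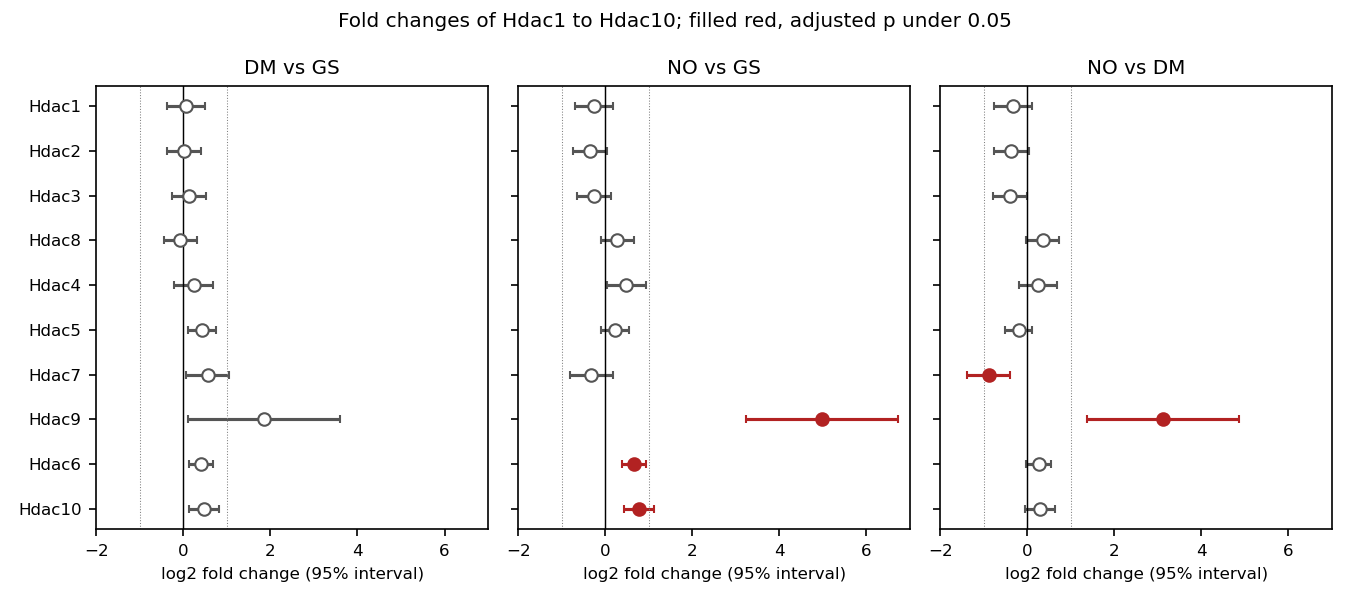
Log2 fold changes (x axis, on the log2(value + 1) scale) of the 10 deacetylases in DM vs GS, NO vs GS and NO vs DM, with 95% intervals from limma and dotted lines at 2-fold. Filled red points passed an adjusted p of 0.05, namely Hdac9, Hdac6 and Hdac10 in NO vs GS, and Hdac9 and Hdac7 in NO vs DM.

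Hdac1 (chr4:129516104-129542713, minus strand), the main nuclear deacetylase of these cells by level, stood at 4944, 4932 and 5169 normalised counts in the GS replicates, 4953, 4552 and 6419 in DM, and 5158, 3000 and 4698 in NO. The media overlapped, and the lowest value belonged to NO replicate 2. The log2 fold change was 0.07 (SE 0.20, adjusted p = 0.895) in DM vs GS, -0.26 (SE 0.20, adjusted p = 0.375) in NO vs GS and -0.33 (SE 0.20, adjusted p = 0.284) in NO vs DM. Without NO replicate 2 the NO changes were -0.026 (adjusted p = 0.934) over GS and -0.093 (adjusted p = 0.785) over DM. Reads of Hdac1 are uncertain, because the processed pseudogene Hdac1-ps (chr17:78491565-78493541, listed as Gm10093) shared 54.1% of the 60-base words of the Hdac1 transcript, and reads with several positions were left out by the authors. The pseudogene was listed at 290 to 618 normalised counts, 9.91% of the Hdac1 mean.

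Hdac2 (chr10:36974544-37001889, plus strand), the partner of Hdac1 in the same complexes and the enzyme the study followed, had normalised counts of 2501, 2758 and 3364 in GS, 3566, 2887 and 2325 in DM, and 2579, 1967 and 2200 in NO. DM spanned the whole range of GS, and NO replicates 2 and 3 lay below all GS and DM samples while NO replicate 1 lay within them. The log2 fold change was 0.015 (95% interval -0.38 to 0.41, adjusted p = 0.978) in DM vs GS and -0.37 (95% interval -0.76 to 0.027, adjusted p = 0.189) in NO vs DM. In NO vs GS it was -0.35 (95% interval -0.75 to 0.042, adjusted p = 0.189). The NO mean was 0.77-fold that of DM, which this test did not separate from the spread between replicates.

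Hdac3, the catalytic subunit of the NCoR and SMRT complexes, had normalised counts of 1654, 1621 and 1736 in GS, 1934, 1760 and 1789 in DM, and 1760, 1010 and 1512 in NO. All 3 DM values were above GS, by a mean of 9.42%, and the log2 fold change of 0.13 (SE 0.18, adjusted p = 0.750) did not pass. In NO vs DM it was -0.39 (SE 0.18, adjusted p = 0.160), with an adjusted p of 0.0346 when NO replicate 1 was left out, and -0.16 (SE 0.12, adjusted p = 0.491) without NO replicate 2, the lowest sample. Hdac8 (chrX:102284639-102505359, minus strand), which deacetylates the cohesin subunit Smc3, had 157, 151 and 161 in GS, 145, 132 and 170 in DM, and 191, 176 and 201 in NO. Each NO value was above each GS and DM value, with log2 fold changes of 0.27 (SE 0.17, adjusted p = 0.288) over GS and 0.35 (SE 0.17, adjusted p = 0.193) over DM, neither past the threshold.

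**Figure D4:**
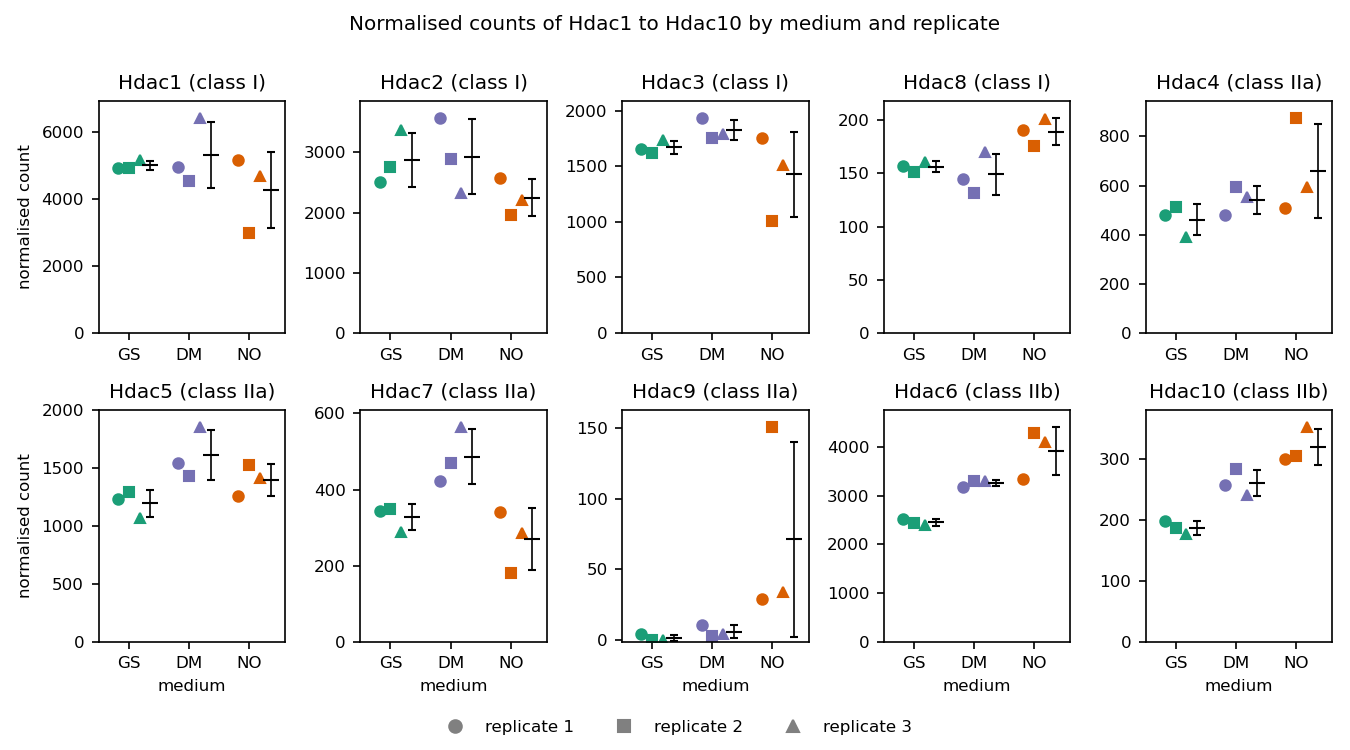
Normalised counts (y axes, each from 0 apart from the lower SD bar of Hdac9) of the 10 deacetylases in GS, DM and NO. Coloured symbols are replicates 1 to 3 and black bars are the mean ± SD (n = 3), and Hdac6 and Hdac10 are lowest in GS and highest in NO while NO replicate 2 is the lowest sample for Hdac1, Hdac2, Hdac3 and Hdac7.

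Of the class IIa genes, Hdac9 (chr12:34047580-34917095, minus strand), whose gene also encodes a truncated form that represses MEF2 factors, differed most. Its normalised counts were 4, 0 and 0 in GS, 11, 3 and 4 in DM, and 29, 151 and 34 in NO, which corresponds to an estimated 4, 0 and 0 reads in GS, 13, 4 and 4 in DM, and 41, 118 and 26 in NO. All NO values lay above all DM and GS values, and NO replicate 2 was the highest by far. With means of 1.33 in GS and 6 in DM, Hdac9 passed the minimum mean of 5 only through NO, so its call does not count as support for the family. The log2 fold change was 4.99 (SE 0.80, adjusted p = 0.0019) in NO vs GS and 3.13 (SE 0.80, adjusted p = 0.0257) in NO vs DM, and in DM vs GS it was 1.86 (SE 0.80, adjusted p = 0.218). With so few reads in GS the size rests on the pseudocount, being 5.69 with a pseudocount of 0.5 and 3.28 with one of 5 in NO vs GS. Without NO replicate 2 the NO mean was 31.5 in place of 71.3, the change over GS was 4.24 (SE 0.79, adjusted p = 0.00489), and the change over DM was 2.38 (SE 0.79, adjusted p = 0.0979), no longer past the threshold. The latter also missed it without DM replicate 2 (adjusted p = 0.0849), DM replicate 3 (0.0713) or NO replicate 3 (0.0524).

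Hdac7 (chr15:97792664-97844502, minus strand), a MEF2 repressor known from thymocytes and endothelium, had normalised counts of 344, 350 and 288 in GS, 423, 469 and 565 in DM, and 341, 181 and 285 in NO. Each DM value was above each GS and NO value. NO was lower than DM by 0.89 on the log2 scale (log2 fold change -0.89, SE 0.22, adjusted p = 0.0248), to 0.55-fold of the mean, and NO and GS overlapped (log2 fold change -0.33, SE 0.22, adjusted p = 0.331, and -0.065 without NO replicate 2). The rise of DM over GS by 1.48-fold in mean did not pass (log2 fold change 0.56, SE 0.22, adjusted p = 0.182). Without NO replicate 2 the NO vs DM change was -0.63 (SE 0.18, adjusted p = 0.0547), and that of DM vs GS had an adjusted p of 0.0427. The NO vs DM call was also lost without DM replicate 2 (adjusted p = 0.0672), DM replicate 3 (0.0781) or NO replicate 3 (0.0555). Hdac7 shares 29 bases of exon with Slc48a1 on the opposite strand.

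Hdac5 (chr11:102194432-102230166, minus strand) had normalised counts of 1233, 1288 and 1064 in GS, 1545, 1433 and 1855 in DM, and 1253, 1526 and 1413 in NO. DM lay above GS in all samples, by 1.35-fold in mean, without passing the test (log2 fold change 0.43, SE 0.14, adjusted p = 0.114). The NO mean lay between them, and the NO values overlapped both (0.23 over GS, adjusted p = 0.294, and -0.20 against DM, adjusted p = 0.371). Hdac4 (chr1:91928779-92195699, minus strand) had 481, 511 and 392 in GS, 479, 592 and 553 in DM, and 508, 874 and 595 in NO, with overlap among the media and the highest value in NO replicate 2. Its log2 fold change was 0.48 (SE 0.20, adjusted p = 0.112) in NO vs GS, and 0.23 and 0.25 in DM vs GS and NO vs DM (adjusted p = 0.577 and 0.428). The NO vs GS change had an adjusted p of 0.0321 when NO replicate 1 was left out, whereas without NO replicate 2 it was 0.26 (SE 0.17, adjusted p = 0.343) and that of NO vs DM was 0.028 (adjusted p = 0.947). Of its exon bases 22.4% overlap the opposite-strand Gm26720, which averaged 56.1 normalised counts, and as use of the strand was not stated the genes cannot be told apart there. The second Hdac4 row had 185, 130 and 110 in GS, 150, 167 and 244 in DM, and 164, 213 and 180 in NO, and did not pass in any comparison (adjusted p from 0.257 to 0.978).

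Both class IIb genes were lowest in GS, higher in DM and highest in NO. Hdac6 (chrX:7930120-7947889, minus strand), the tubulin deacetylase, had normalised counts of 2527, 2445 and 2387 in GS, 3183, 3292 and 3302 in DM, and 3350, 4289 and 4106 in NO. No medium overlapped another. Hdac6 rose by 0.67 on the log2 scale from GS to NO (SE 0.13, adjusted p = 0.00455), by 59.6% in mean, whereas neither the step from GS to DM (0.41, SE 0.13, adjusted p = 0.0831) nor that from DM to NO (0.26, SE 0.13, adjusted p = 0.192) passed on its own. Without NO replicate 2 the NO vs GS change was 0.60 (SE 0.13, adjusted p = 0.010), and the DM vs GS step had an adjusted p of 0.040.

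Hdac10 (chr15:89123307-89128700, minus strand), the polyamine deacetylase, had normalised counts of 198, 186 and 176 in GS, 257, 283 and 241 in DM, and 300, 305 and 353 in NO. Again no medium overlapped another. Hdac10 rose by 0.77 from GS to NO (SE 0.16, adjusted p = 0.00627), 1.71-fold in mean, and the changes of 0.48 in DM vs GS (SE 0.16, adjusted p = 0.102) and 0.29 in NO vs DM (SE 0.16, adjusted p = 0.224) did not pass. Without NO replicate 2 the NO vs GS change was 0.80 (SE 0.17, adjusted p = 0.00892). At an adjusted p under 0.05, the calls of Hdac6 and Hdac10 in NO vs GS were kept in all 21 alternative fits and that of Hdac9 in the 20 that keep it in the test, whereas a 2-fold minimum, which both Hdac6 and Hdac10 miss, leaves Hdac9 alone.

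For the 3 members with the smallest F-test p, the genes of most similar pattern were found by Pearson r of log2(value + 1) over the 9 samples. All tested genes were searched, with the other members and model-named genes left out. Closest to Hdac9 were Fam171b (r = 0.989), the bHLH repressor gene Hes2 (r = 0.986) and the tetraspanin gene Tspan9 (r = 0.982). Fam171b, for example, had normalised counts of 30, 23 and 21 in GS, 39, 32 and 29 in DM and 53, 82 and 58 in NO, a far smaller range than Hdac9. Closest to Hdac6 were the glucose transporter gene Slc2a4 (r = 0.992), the ligand gene Wnt6 (r = 0.991) and the Src-substrate gene Efs (r = 0.988), and Wnt6 went from 29, 32 and 21 in GS over 79, 97 and 130 in DM to 124, 524 and 361 in NO. Closest to Hdac10 were Spata31d1a (r = 0.970), Arhgap9 (r = 0.967) and the calcium channel gene Ryr2 (r = 0.960). These correlations are the highest of many, rest on 9 libraries in 3 media and carry no test.

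Genes that work with the deacetylases were taken as 12 lists with 136 genes, of which 133 were tested and Mef2b, Mef2c and Prkd1 were not. In DM vs GS 3 were higher and 5 lower, 6.02% of those tested against 6.69% of all genes. In NO vs GS 10 were higher and 11 lower, 15.8% against 20.0%, and in NO vs DM 5 were higher and 10 lower, 11.3% against 14.2%. The lists as a whole were thus called no more often than the table. None of the 8 other deacetylases (Hdac11 and Sirt1 to Sirt7) and none of the 3 BET readers of acetyl-lysine was called in any comparison. Of the 36 calls of list genes named next, 14 were kept at an adjusted p under 0.05 in every alternative fit, namely those of Phf21a in both comparisons, Rcor2 in NO vs DM, Sfn in both comparisons, Camk2d in NO vs DM, and Chd5, Ing2, Tbl1x, Mier3, Trerf1, Dnajb5, Prkd2 and Ncoa1 in NO vs GS. Of these 14, 4 were under 2-fold (Ing2, Tbl1x, Mier3 and Ncoa1) and are lost with a 2-fold minimum. Camk2d was tested in 18 alternative fits and the others in 19, as the filter at a mean above 50 leaves Camk2d out. The calls outside these 14 were lost in at least 1 fit, and several were kept in only a minority of their 19 alternative fits. In NO vs DM these were Ing1 (3 fits), Pds5a (4), Sin3a (5), Hsp90ab1 (5), Sap30l (6) and Smox (8). In DM vs GS they were Sat1 (7), Kat6b (8), Trerf1 (8) and Mier3 (9), and in NO vs GS Chd3 (8) and Hsp90ab1 (8). With the replicate number as a block, 9 of the 15 calls in NO vs DM were kept, 6 were lost (Sap30l, Ing1, Pds5a, Ywhae, Hsp90ab1 and Dnajb5) and 1 was gained (Ing2).

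Among partners of Hdac1 and Hdac2, the CoREST list (10 genes) had 2 higher in DM than in GS and the same 2 lower in NO than in DM, with none called in NO vs GS. Phf21a, which encodes the subunit that reads unmethylated histone H3 tails, had normalised counts of 392, 450 and 458 in GS, 920, 954 and 861 in DM, and 539, 374 and 386 in NO, a change of 1.07 (adjusted p = 0.00233) from GS to DM and -1.09 (adjusted p = 0.00324) from DM to NO. Rcor2, a scaffold subunit, had 1560, 1570 and 1597 in GS, 2530, 2460 and 2659 in DM, and 1369, 895 and 1328 in NO, with changes of 0.69 (adjusted p = 0.0238) and -1.11 (adjusted p = 0.00286). Both genes were thus high in DM alone, each DM value lying above every GS and NO value.

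In the NuRD list (13 genes) the remodeller gene Chd5 rose from 175, 156 and 126 in GS to 385, 880 and 514 in NO (log2 fold change 1.88, adjusted p = 0.0012). Its relative Chd3 fell from 691, 565 and 643 in GS to 394, 406 and 338 in DM (-0.74, adjusted p = 0.0296) and 355, 535 and 385 in NO (-0.59, adjusted p = 0.0366). Mbd3, the methyl-CpG-binding-domain subunit, was lower in NO (790, 778 and 935) than in DM (1206, 1346 and 1762), by -0.77 (adjusted p = 0.0269). In the Sin3 list (17 genes) none was called in DM vs GS, and 2 were lower in NO than in GS, namely Ing2, a reader of methylated histone H3 (-0.92, adjusted p = 0.00906), and Sap30l (-0.50, adjusted p = 0.0286). Against DM, 3 were lower in NO, Sap30l (-0.49, adjusted p = 0.0415, 0.0727 with the replicate number as a block), the scaffold gene Sin3a (-0.74, adjusted p = 0.0477, 0.0449 with the block) and Ing1 (-0.44, adjusted p = 0.0488, 0.0571 with the block). The Sin3 calls were 11.8% of the list against 20.0% of all genes in NO vs GS, and 17.6% against 14.2% in NO vs DM.

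For Hdac3, the NCoR and SMRT list (5 genes) had 2 lower in NO than in GS (40% against 20.0% of all genes) and none called otherwise. Tbl1x, an exchange factor of the complex, fell from 2348, 2223 and 2508 in GS to 1596, 1378 and 1590 in NO (-0.63, adjusted p = 0.00488), and its relative Tbl1xr1 fell by 0.50 (log2 fold change -0.50, adjusted p = 0.0321). In the list of MiDAC and MIER complexes, which hold Hdac1 and Hdac2 (7 genes), Mier3 was lower (-0.70 in DM and -0.92 in NO against GS, adjusted p = 0.0307 and 0.00387) and Trerf1 higher (1.27 and 1.51, adjusted p = 0.0396 and 0.00856) in both serum media. In the Hdac8 and cohesin list (11 genes) the cohesin subunit gene Stag1 was lower in DM than in GS (-0.67, adjusted p = 0.0229), and the cohesin regulator Pds5a was lower in NO than in GS (-0.53, adjusted p = 0.0277) and DM (-0.49, adjusted p = 0.0481, 0.0644 with the block).

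**Figure D5:**
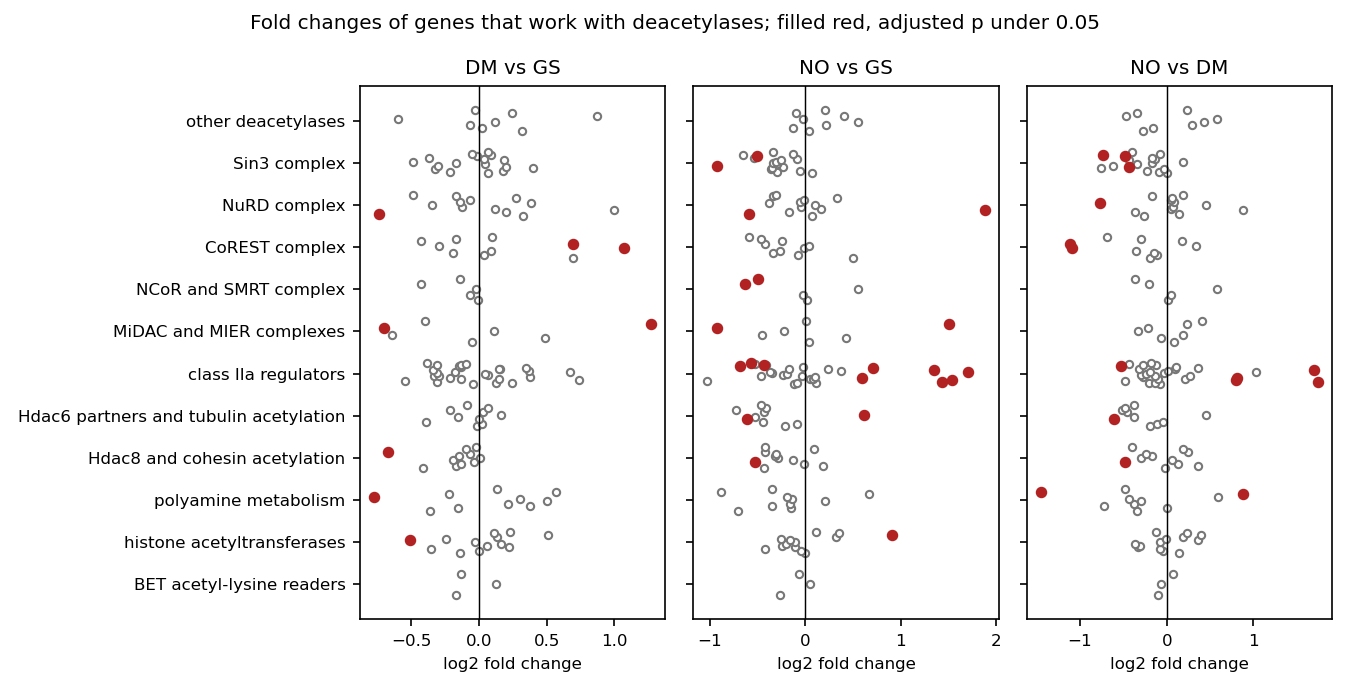
Log2 fold changes (x axes, a separate scale in each panel) of the tested genes of 12 lists of deacetylase partners, related enzymes and readers in DM vs GS, NO vs GS and NO vs DM, with 1 point per gene. Filled red points passed an adjusted p of 0.05, 8, 21 and 15 genes in turn. The class IIa regulators, the longest list with 28 tested genes, hold 9 of those in NO vs GS.

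The regulators of class IIa enzymes (28 tested, the longest list) had no call in DM vs GS, where 6.69% of all genes passed. In NO vs GS 6 were higher and 3 lower (32.1% against 20.0% of all genes). In NO vs DM 4 were higher and 1 lower (17.9% against 14.2% of all genes). With the replicate number as a block, Ywhae, the lower gene in NO vs DM (-0.53), went from an adjusted p of 0.0460 to 0.0531 and Dnajb5, a higher one (0.80), from 0.0450 to 0.0573, which leaves 3 higher and none lower. The chaperone gene Dnajb5 rose from 212, 187 and 177 in GS to 404, 799 and 535 in NO (1.54, adjusted p = 0.00159), and the kinase gene Prkd2, whose product phosphorylates class IIa enzymes, from 101, 90 and 75 to 156, 620 and 249 (1.70, adjusted p = 0.0107). Sfn, a Ywha-family adaptor, had 383, 431 and 381 in GS, 344, 266 and 337 in DM, and 580, 1779 and 1021 in NO (1.35 over GS, adjusted p = 0.011, and 1.70 over DM, adjusted p = 0.0070). In these genes NO replicate 2 was the highest sample. Camk2d, a calmodulin-dependent kinase gene, rose by 1.75 (adjusted p = 0.0116) and Mef2a, a transcription factor gene that class IIa enzymes repress, by 0.81 (adjusted p = 0.0195) from DM to NO. The 3 genes lower in NO than in GS (Ywhae, Ywhaz and Ywhag), named after their values were seen, are adaptors that bind phosphorylated class IIa enzymes, with log2 fold changes from -0.68 to -0.43. The adaptors did not move together. Ywhab (-0.020, adjusted p = 0.935) and Ywhah (-0.41, adjusted p = 0.0803) were not called in NO vs GS, and Sfn was higher. With the replicate number as a block, the call of Ywhag was lost.

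Around Hdac6, the list of partners and tubulin acetylation genes (10 genes) had the ubiquitin receptor gene Sqstm1 higher (0.62, adjusted p = 0.0191) and the chaperone gene Hsp90ab1 lower (-0.61, adjusted p = 0.039) in NO than in GS, and Hsp90ab1 also lower in NO than in DM (-0.61, adjusted p = 0.0495, 0.0505 with the block). Around Hdac10, the polyamine list (10 genes) had the spermidine and spermine acetyltransferase gene Sat1 lower in DM than in GS (-0.78, adjusted p = 0.0456), and in NO against DM the spermine synthase gene Sms lower (-1.45, adjusted p = 0.0288) and the spermine oxidase gene Smox higher (0.88, adjusted p = 0.0365). Of the enzymes that add the acetyl groups (13 genes), Kat6b was lower in DM than in GS (-0.51, adjusted p = 0.0283) and Ncoa1 higher in NO than in GS (0.90, adjusted p = 0.00858), and none was called in NO vs DM.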

How the data were processed

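Total RNA-Seq of 9 samples was used, 3 each in GS, DM and NO, grouped by the medium in the labels. By the study's methods and the submitters' processing notes, libraries depleted of ribosomal RNA were run on an Ion Torrent Proton, and the authors checked reads with FastQC 0.11.2, aligned them to GRCm38 with STAR 2.4.0a and counted them per gene with featureCounts 1.4.5-p1, leaving out ambiguous reads. The deposited values are a score, namely counts normalised by the authors with DESeq2 and rounded, so no count model was fitted although the study used one.

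The 18156 genes whose mean exceeded 5 entered the tests as log2(value + 1), in limma 3.58.1 in R 4.3.3 (3 media as groups, all 9 samples, trended moderation, two-sided, Benjamini-Hochberg adjustment, threshold 0.05). A fold change on this scale understates the change of low genes. The procedure was tested on simulated data. Depth was estimated from the spacing of low values. Precision was set by 3 replicates and, for Hdac9, by depth. Coordinates and exon lengths are from GENCODE M21 (GRCm38) and promoters from RefSeq (GRCm38.p6).

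Replicate numbers recur in each medium. Deviations of same-numbered DM and NO samples correlated in every pair (r = 0.16, 0.17 and 0.30), so by the rule set for pairing the numbers were taken to pair DM with NO. DM and NO samples of unlike number had r from -0.22 to -0.025. Samples of unlike number in other media nevertheless reached similar values, such as GS replicate 1 with DM replicate 3 (r = 0.22) and GS replicate 3 with DM replicate 1 (r = 0.22). These correlations therefore do not establish the pairing. GS was not paired with DM (r = -0.18, 0.022 and -0.23) or NO (r = -0.046, 0.050 and -0.11). The main fit does not use the pairing of DM with NO, so the calls in NO vs DM are unpaired unless the block is named. The replicate block was fitted on all 9 samples and so blocks GS as well. A block on the DM and NO samples alone was read for the members and not for the list genes.

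The members, lists and tests were chosen with earlier results of these data known. Named list genes are, per list and comparison, the up to 3 genes with the smallest adjusted p under 0.05. Alternatives were the pseudocount, filter, scaling, moderation, weights, samples, the replicate block, a 2-fold minimum and leaving out each replicate. Summing both Hdac4 rows and the block with only the 6 samples compared were added after the data were seen.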

Additional observations from a re-analysis of the deposited data

How the results depend on the processing

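The number of members called in DM vs GS was 0 in all alternatives except with only the 6 samples compared (1, Hdac6) and without NO replicate 2 (2, Hdac6 and Hdac7), with a range of 0 to 2 over the fits that leave out a replicate. In NO vs GS the number was 3 or 4 except with a mean above 50 (2, Hdac9 not being tested) and with a 2-fold minimum (1). In NO vs DM, where 2 were called, the number was 1 with a 2-fold minimum, 1 with the 6 samples compared only, 1 with a mean above 50 (which drops Hdac9 from the test), 0 with moderation without a trend (adjusted p = 0.0551 for Hdac9 and 0.0604 for Hdac7), and 0 to 3 over the fits without a replicate, the lowest without DM replicates 2 or 3 or NO replicates 2 or 3. The replicate block kept both calls in NO vs DM (adjusted p = 0.0334 for Hdac7 and 0.0285 for Hdac9) and changed no other member's call. With the block in a fit of those 6 samples, adjusted p was 0.0338 and 0.0210. The F test called 4 members, and 2 without NO replicate 3 (2 to 4 over those fits).

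The counts of list genes were far less stable. In DM vs GS the number was 8, and 2 with a 2-fold minimum, 4 with the replicate block, 13 with only the 6 samples compared, 5 with no filter, 4 with quantile normalisation, 1 with moderation without a trend and 1 to 16 without a replicate (lowest without any GS replicate or DM replicate 3, highest without NO replicate 2). In NO vs GS it was 21, and 6, 13 and 10 to 36 with a 2-fold minimum, without a trend and without a replicate (lowest without GS replicates 1 or 3, highest without NO replicate 1). In NO vs DM it was 15, and 10 with the replicate block (9 of the 15 and 1 other gene) and 5, 5, 7 and 5 with a 2-fold minimum, only the 6 samples compared, no filter and no trend, and 4 to 27 without a replicate (lowest without DM replicate 2 or NO replicates 2 or 3, highest without NO replicate 1). The cause was not tested.

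Directions of members turned only in DM vs GS, where changes were near 0, namely for Hdac1 (-0.078 without DM replicate 3, with a range of -0.078 to 0.17 without a replicate), Hdac2 (-0.080 without GS replicate 1, -0.0093 without GS replicate 2 and -0.14 without DM replicate 1, range -0.14 to 0.17) and Hdac8 (0.0067 without DM replicate 2, range -0.17 to 0.0067). Of 627 values of members in alternative fits (a 2-fold minimum not counted), 606 kept direction and side of the threshold, and of 683 values of named list genes 469 did, the other 214 losing the call. Quantile normalisation moved the median of all genes in NO vs GS to -0.11. A fit with weights per sample was not run, since the weights did not converge. At 3 replicates, changes such as that of Hdac2 in NO against DM could be neither called nor bounded away from 0, and Hdac9 rests on few reads in GS and DM.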
